A study of Mus musculus with 8 samples.

Results

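The genes described here are Trp53, which encodes the tumour suppressor p53, and 9 genes that p53 switches on under stress: Mdm2, Cdkn1a, Bbc3, Bax, Ccng1, Sesn1, Phlda3, Trp53inp1 and Gdf15. They were taken by symbol from the 43346 genes of the count table, and all 10 were found. The cells were MC3T3, a line of mouse pre-osteoblasts that mineralizes in culture. In the LLC_CM group (4 libraries) the cells had been kept for 7 days with 25% medium conditioned by LLC1, a mouse Lewis lung carcinoma line. That medium was serum-free, had been on the LLC1 cells for 48 h and was filtered. The 4 libraries named NCM are taken as the vehicle group by elimination, since the labels leave that abbreviation unexplained. Cells of both groups received ascorbic acid at 100 ug/mL and beta-glycerophosphate at 10 mM. Day 7 and a conditioning time of 48 h are recorded for the NCM libraries as well, without a percentage of conditioned medium.

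p53 is a transcription factor whose protein is held at a low level by the ubiquitin ligase Mdm2, and Mdm2 is itself a p53 target, which closes a feedback loop. DNA damage and other stresses stabilize the protein, and it then raises genes of cell cycle arrest (Cdkn1a, Ccng1), cell death (Bax, Bbc3, Phlda3), and metabolic and redox control (Sesn1, Trp53inp1). In bone, p53 is known to restrain osteoblast differentiation. Much of its control is exerted on the protein, which was not measured here, and several of its targets are also driven by other factors.

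Each library held 27264212 to 35573953 counts, and 14991 genes passed the filter on low counts and were tested with edgeR's quasi-likelihood test. Levels are CPM (counts scaled to a million-count library, with TMM-scaled totals), fold changes are LLC_CM over NCM on the log2 scale with their standard error (SE), and a gene is called at a Benjamini-Hochberg adjusted p under 0.05 over all genes tested. It is not stated that the replicates were separate cultures, so a p-value covers the spread between these libraries, which may be technical. In a bulk sample, fewer cells of a type and less RNA per cell cannot be told apart. All 6 osteoblast markers on the list fell, with a summed level of 20841 to 26153 CPM in the LLC_CM libraries and 29322 to 38445 CPM in the NCM libraries. Of the 5 tested macrophage markers 3 were higher in LLC_CM, where the list summed to 23.0 to 36.5 CPM, against 15.1 to 20.2 CPM in NCM. For comparison, 18.8% of all genes tested were called higher and 18.1% lower. Ptprc and Emr1, which define leukocytes and macrophages, had 0 counts over LLC_CM and 4 and 3 counts over NCM. The carcinoma epithelial markers Epcam, Krt8, Krt18 and Sftpc had 0 counts in every library. Muc1, the 1 tested marker of that list, was higher in LLC_CM, at 1.46 ± 0.455 CPM in LLC_CM and 0.383 ± 0.193 CPM in NCM (SD, n = 4 each, log2 fold change 1.93 ± 0.36, edgeR adjusted p = 0.00050). The list of 7 summed to 1.11 to 2.24 CPM in LLC_CM and 0.318 to 0.709 CPM in NCM. The part of these markers in the values below was not tested.

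Promoter windows of Cdkn1a, Ccng1, Trp53 and Bax, each with a match, are shown here. Cdkn1a, Ccng1 and Bax were chosen as direct p53 targets, and Trp53 encodes p53 itself. RefSeq windows on GRCm38.p6 from 250 bases before to 50 bases after the start site were available for 9 of the 10 members, all but Trp53inp1. They were searched for the p53 consensus half-site of 10 bases, a motif that reads the same on both strands, and for pairs of half-sites with at most 13 bases between them and at most 1 base off the consensus. The windows below run 5′ to 3′ on the strand of the gene, with capitals marking the matched bases.
Cdkn1a, upstream start (chr17:29090729-29091028, plus strand): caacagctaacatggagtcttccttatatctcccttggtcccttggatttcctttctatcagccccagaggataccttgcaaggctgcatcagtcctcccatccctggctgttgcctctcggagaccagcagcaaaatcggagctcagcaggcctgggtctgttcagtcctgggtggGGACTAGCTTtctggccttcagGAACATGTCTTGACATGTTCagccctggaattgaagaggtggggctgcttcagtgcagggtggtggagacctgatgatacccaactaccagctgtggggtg
Ccng1 (chr11:40755237-40755536, minus strand): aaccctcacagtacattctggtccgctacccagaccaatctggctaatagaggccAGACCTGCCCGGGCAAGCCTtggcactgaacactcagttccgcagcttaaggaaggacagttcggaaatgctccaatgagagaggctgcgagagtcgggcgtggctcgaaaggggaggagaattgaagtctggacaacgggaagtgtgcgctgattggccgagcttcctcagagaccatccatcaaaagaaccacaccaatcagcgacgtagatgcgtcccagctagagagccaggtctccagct
Trp53 (chr11:69580109-69580408, plus strand): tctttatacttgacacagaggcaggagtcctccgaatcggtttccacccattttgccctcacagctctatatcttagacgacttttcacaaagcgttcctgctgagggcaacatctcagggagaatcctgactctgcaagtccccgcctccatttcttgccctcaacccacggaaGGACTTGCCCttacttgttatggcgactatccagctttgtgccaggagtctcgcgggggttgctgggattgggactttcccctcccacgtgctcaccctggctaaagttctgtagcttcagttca
Bax (chr7:45466849-45467148, minus strand): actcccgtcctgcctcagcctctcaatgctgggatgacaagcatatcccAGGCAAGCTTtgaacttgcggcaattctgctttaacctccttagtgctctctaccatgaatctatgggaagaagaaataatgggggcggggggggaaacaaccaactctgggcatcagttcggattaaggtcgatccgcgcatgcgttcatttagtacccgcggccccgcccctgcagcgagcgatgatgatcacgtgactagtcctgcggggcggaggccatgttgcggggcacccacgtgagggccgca

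The 9 members have 14 windows, since some have several starts. A half-site was found in 6 of the 14, each of a different gene, and in 8.36% of all 32851 windows. Paired sites were present in 2 of the 14, those of Cdkn1a and Ccng1, and in 0.627% of all windows. In the upstream Cdkn1a window the half-sites GGACTAGCTT and GAACATGTCT start 73 and 51 bases before the start site and form a pair with 12 bases between them and 0 bases off the consensus. An overlapping pair, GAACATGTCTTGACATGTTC, has no spacer and is 1 base off. The Ccng1 pair, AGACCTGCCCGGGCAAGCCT, is also 1 base off and starts 195 bases before the start site. Trp53 holds 1 half-site at -75 and Bax 1 at -201, and Mdm2 (GAACTTGCCT) and Sesn1 (AAGCTTGTTT) each hold 1 as well. No window of Bbc3, Phlda3 or Gdf15 holds a match. A second Cdkn1a window, 2790 bases downstream of the first start, holds no match, and the gene's count covers transcripts of both starts. These are matches of letters within the windows only. The well-known p53 sites of Mdm2 lie in its first intron, outside the windows.

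Of the 10 members 9 passed the filter and were tested. Trp53 and Bax were higher in LLC_CM, Cdkn1a and Bbc3 were lower, and 5 were not called. Of all genes tested 36.9% were called, 18.8% higher and 18.1% lower, so 4 calls among 9 members is close to the background. The median log2 fold change was 0.10 over the tested members and 0.01 over all genes. The 4 libraries of one group lay entirely beyond those of the other for Trp53 and Cdkn1a, and the groups overlapped for the other 7 tested members, where 36.3% of all genes tested were separated. Cdkn1a was the member with the largest change, and 13.03% of all tested genes changed at least as much.

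**Figure D1:**
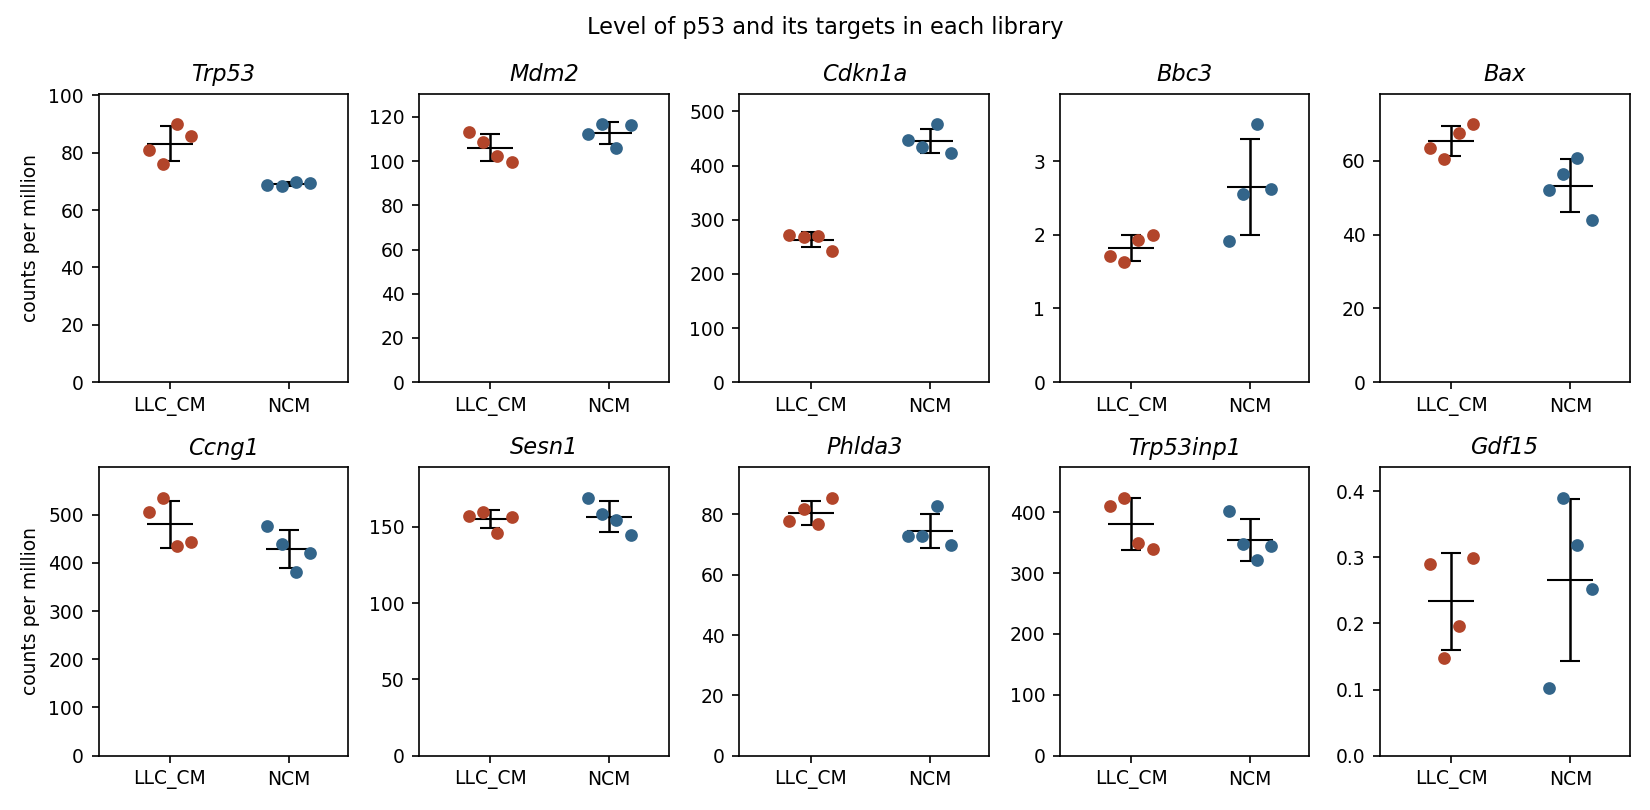
CPM of each of the 10 members in each library, LLC_CM left of NCM, with points for libraries and bars for the mean ± SD (n = 4). Cdkn1a is lower in all 4 LLC_CM libraries than in any NCM library and Trp53 is higher, while the groups overlap for the other members.

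Trp53 (ENSMUSG00000059552, chromosome 11, 69580359 to 69591873 in mm10) had 80.9, 76.1, 89.8 and 85.8 CPM in LLC_CM libraries 1 to 4, against 68.6, 68.5, 69.9 and 69.4 CPM in NCM libraries 1 to 4. All 4 LLC_CM libraries lay above all 4 NCM libraries, and the NCM values were much closer together. The mean was 83.2 ± 5.97 CPM in LLC_CM and 69.1 ± 0.664 CPM in NCM (SD, n = 4 each), a log2 fold change of 0.27 ± 0.06 (SE, 95% interval 0.14 to 0.40, edgeR adjusted p = 0.0025). A processed pseudogene, Trp53-ps, matches the Trp53 transcript at 94.957% identity over 1170 bases, and it had 2 counts over all libraries.

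Mdm2 (ENSMUSG00000020184, chromosome 10, 117688888 to 117710758), the ubiquitin ligase that removes p53, did not follow Trp53. Its levels were 113, 109, 102 and 99.8 CPM in LLC_CM, against 112, 117, 106 and 116 CPM in NCM. The groups overlapped, with LLC_CM libraries 3 and 4 below every NCM library. The log2 fold change was -0.09 ± 0.06 (SE, 95% interval -0.21 to 0.04) and was not called (edgeR adjusted p = 0.26). Taken within each library, which needs no scaling, the ratio of Mdm2 to Trp53 counts was 1.40, 1.43, 1.14 and 1.16 in LLC_CM, against 1.63, 1.70, 1.52 and 1.68 in NCM. All 4 LLC_CM ratios lay below the NCM ratios, and Trp53 alone also separated the groups. The mean log2 ratio differed by -0.35, LLC_CM minus NCM (two-sided exact permutation test over 70 splits, p = 0.0286, the smallest it can give, and 0.0286 adjusted over the 4 ratios computed). Its adjusted p rose to 0.0571 without NCM replicate 1, 2 or 4.

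Mdm4, the relative of Mdm2 that also binds and inhibits p53, averaged 501 ± 37.6 CPM in LLC_CM and 473 ± 13.6 CPM in NCM (SD, n = 4 each) and was not called (log2 fold change 0.08 ± 0.07, edgeR adjusted p = 0.35). The ratio of Mdm2 to Mdm4 counts was 0.212, 0.218, 0.196 and 0.222 in LLC_CM, against 0.230, 0.243, 0.230 and 0.252 in NCM. The groups did not overlap, with a difference in mean log2 ratio of -0.17 (exact permutation test, p = 0.0286 raw and adjusted, or 0.0571 without NCM replicate 4).

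Cdkn1a (ENSMUSG00000023067, chromosome 17, 29090979 to 29100722) encodes p21, the inhibitor of cyclin-dependent kinases through which p53 arrests the cell cycle. Its levels were 271, 268, 270.0 and 243 CPM in LLC_CM, against 447, 434, 476 and 424 CPM in NCM. Every LLC_CM library lay far below every NCM library, and LLC_CM library 4 was the lowest of all. Cdkn1a fell to 263 ± 13.7 CPM in LLC_CM, against 445 ± 22.7 CPM in NCM (SD, n = 4 each), which is 1.69-fold lower (log2 fold change -0.76 ± 0.06, 95% interval -0.90 to -0.62, edgeR adjusted p = 2.0e-07). It stayed called in all 20 alternative settings, with log2 fold changes of -0.79 to -0.73. An opposite-strand gene model overlaps 7.68% of its exonic bases, and the library kit does not mark strand.

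Ccng1 (ENSMUSG00000020326, chromosome 11, 40748552 to 40755311), cyclin G1, which feeds back on Mdm2 and p53, had 506, 535, 436 and 443 CPM in LLC_CM, against 477, 439, 381 and 421 CPM in NCM. LLC_CM libraries 1 and 2 were above every NCM library, and libraries 3 and 4 lay within the NCM range. Its log2 fold change of 0.16 ± 0.08 (95% interval -0.02 to 0.34) was not called (edgeR adjusted p = 0.15). Of the 2 members with a paired site in a promoter window, Cdkn1a was called lower and Ccng1 was not called.

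Bax (ENSMUSG00000003873, chromosome 7, 45461695 to 45466898), a BCL2-family protein that permeabilizes the mitochondrial outer membrane, had 63.5, 60.5, 67.6 and 69.9 CPM in LLC_CM, against 52.0, 56.4, 60.7 and 44.0 CPM in NCM. The groups touched, since NCM library 3 lay just above LLC_CM library 2. The mean was 65.4 ± 4.19 CPM in LLC_CM and 53.3 ± 7.11 CPM in NCM (SD, n = 4 each), a log2 fold change of 0.30 ± 0.09 (95% interval 0.11 to 0.48, edgeR adjusted p = 0.015). The call was lost on leaving out LLC_CM library 4 (adjusted p = 0.055), and on leaving out NCM library 1 (0.051) or 4 (0.054). A same-strand gene model, Gm45808, overlaps 12.2% of the exonic bases of Bax.

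Bbc3 (ENSMUSG00000002083, chromosome 7, 16309616 to 16318205) encodes PUMA, a BH3-only activator of cell death and one of the strongest p53 death targets. Its levels were low, at 1.71, 1.63, 1.93 and 2.00 CPM in LLC_CM, against 1.91, 2.55, 3.50 and 2.62 CPM in NCM, from 233 counts over LLC_CM and 310 over NCM. LLC_CM libraries 3 and 4 exceeded NCM library 1, and the other 3 NCM libraries were above all of LLC_CM. The log2 fold change was -0.53 ± 0.20 (95% interval -0.96 to -0.11, edgeR adjusted p = 0.049). This call is marginal, because it was lost in 15 of 20 alternative settings and on leaving out any single library other than NCM replicate 1 (adjusted p = 0.057 to 0.17).

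**Figure D2:**
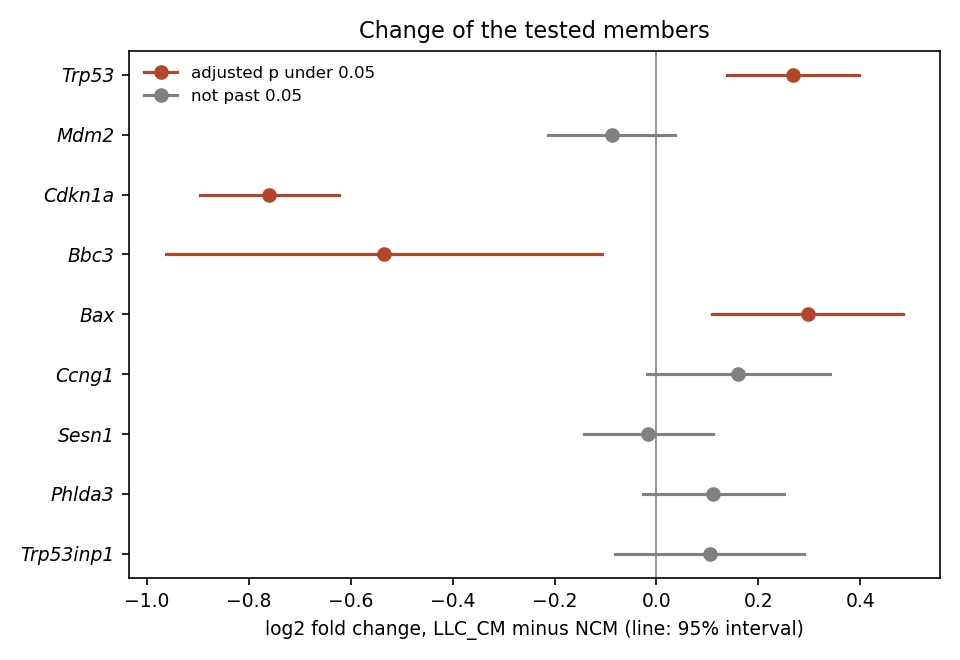
Log2 fold change of each tested member, LLC_CM over NCM, with points for the edgeR estimate and bars for the 95% interval. The interval of Cdkn1a runs from -0.90 to -0.62, and those of Trp53 and Bax lie above 0.

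Phlda3 (ENSMUSG00000041801, chromosome 1, 135766119 to 135769136), an inhibitor of Akt signalling, had 77.8, 81.9, 77.0 and 85.4 CPM in LLC_CM, against 72.8, 72.7, 82.7 and 69.9 CPM in NCM. One NCM library, replicate 3, reached the LLC_CM range and the other 3 lay below it. The log2 fold change of 0.11 ± 0.06 (95% interval -0.03 to 0.25) was not called (edgeR adjusted p = 0.20).

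Sesn1 (ENSMUSG00000038332, chromosome 10, 41810574 to 41908424), a sestrin that restrains mTORC1 signalling, had 157, 159.9, 146 and 156 CPM in LLC_CM, against 169, 158, 155 and 145 CPM in NCM. The groups overlapped almost fully. Its log2 fold change was -0.02 ± 0.06 (95% interval -0.14 to 0.11, edgeR adjusted p = 0.86).

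Trp53inp1 (ENSMUSG00000028211, chromosome 4, 11156431 to 11174379), a nuclear protein that promotes p53 phosphorylation and autophagy, had 411, 423, 349 and 339.9 CPM in LLC_CM, against 402, 348, 322 and 344 CPM in NCM. The groups overlapped, with libraries 1 and 2 of LLC_CM the highest of the 8. Its log2 fold change of 0.10 ± 0.09 (95% interval -0.08 to 0.29) was not called (edgeR adjusted p = 0.38). Among the LLC_CM libraries, Mdm2, Ccng1, Sesn1 and Trp53inp1 were all higher in libraries 1 and 2 than in libraries 3 and 4. Trp53, Bax and Bbc3 were lower in libraries 1 and 2, and Cdkn1a, Phlda3 and Gdf15 did not split this way. Outside the members some listed genes split this way and others did not. Fas had 23.9, 24.7, 17.7 and 18.3 CPM in LLC_CM libraries 1 to 4, and Ccng2 had 33.3, 36.4, 26.2 and 27.0 CPM. Aen, with 38.3, 33.5, 43.2 and 37.7 CPM, and Usp7, with 142.88, 149.27, 142.93 and 135.39 CPM, did not split. The split was noticed in these values, its share over all genes was not computed, and it was not tested.

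Gdf15 (ENSMUSG00000038508, chromosome 8, 70629393 to 70632456), a secreted stress cytokine of the TGF-beta superfamily, was barely detected. It had 9, 4, 7 and 10 counts in LLC_CM, against 3, 11, 9 and 8 counts in NCM, or 30 and 31 in all. Libraries of both groups spanned the same low range, and the gene failed the filter and was not tested in the fit reported here. Without the filter its log2 fold change was -0.18 (edgeR adjusted p = 0.84).

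Levels of different members were compared per length, as TPM (the share of a gene in a million-transcript pool) computed from the counts and the deposited gene lengths. Cdkn1a and Ccng1 had the highest levels in both groups on this scale. Cdkn1a averaged 322 ± 18.9 TPM in LLC_CM and 562 ± 14.6 TPM in NCM, and Ccng1 averaged 371 ± 24.4 TPM in LLC_CM and 343 ± 33.8 TPM in NCM (SD, n = 4 each). Ccng1 exceeded Cdkn1a in 4 of 4 LLC_CM libraries, and Cdkn1a exceeded Ccng1 in 4 of 4 NCM libraries. With the deposited lengths, below them in both groups came Bax, Trp53inp1, Phlda3, Sesn1, Mdm2, Trp53, Bbc3 and Gdf15 in that order. Bax averaged 205 ± 20.04 TPM in LLC_CM and 172 ± 19.5 TPM in NCM. The ranges of neighbouring genes overlapped in LLC_CM for Trp53inp1 and Phlda3 and for Mdm2 and Trp53. In NCM they overlapped for Bax and Trp53inp1, for Trp53inp1 and Phlda3 and for Phlda3 and Sesn1. The order depends on the length used. The deposited lengths of Cdkn1a and Bax are 2223 and 869 bases, and their exonic bases in GENCODE M21 are 3553 and 1576. With the M21 lengths, a choice made after seeing the data, Ccng1 still exceeded Cdkn1a in 4 of 4 LLC_CM libraries, but Cdkn1a exceeded Ccng1 in 1 of 4 NCM libraries. Bax then lay below Trp53inp1 in every library, and it exceeded Sesn1 in 3 of 4 LLC_CM libraries and 0 of 4 NCM libraries. Trp53 averaged 56.0 ± 6.10 TPM in LLC_CM and 48.0 ± 1.34 TPM in NCM, and Bbc3 averaged 2.47 ± 0.323 TPM in LLC_CM and 3.69 ± 0.866 TPM in NCM.

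**Figure D3:**
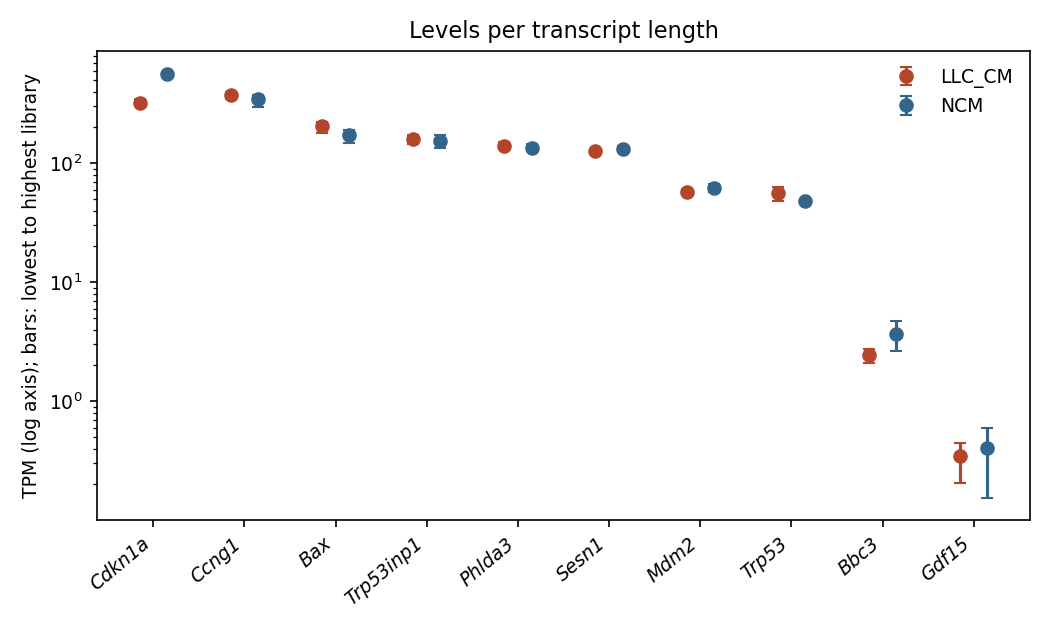
Level per length of each member in TPM on a log axis, for LLC_CM and NCM, with points for the mean and bars from the lowest to the highest of the 4 libraries. With these deposited lengths Cdkn1a and Ccng1 are the highest in both groups, and Bbc3 and Gdf15 are the lowest in both.

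The ratio of Bax to each of the death inhibitors Bcl2 and Bcl2l1 was compared within libraries. Other BCL2 family genes had higher levels and were not called. Mcl1 averaged 121.5 CPM in LLC_CM and 128.4 CPM in NCM, and Bcl2l2 averaged 57.1 and 59.7 CPM. Ratios of Bax to Mcl1 or Bcl2l2 were not computed, so the values below do not give a balance over the whole family. Bcl2, the inhibitor that names the family, fell to 9.43 ± 1.25 CPM in LLC_CM and stood at 21.2 ± 3.20 CPM in NCM (SD, n = 4 each, 2.25-fold, log2 fold change -1.17 ± 0.12, edgeR adjusted p = 2.6e-06). The ratio of Bax to Bcl2 counts was 8.32, 6.34, 6.63 and 6.76 in LLC_CM, against 2.46, 3.34, 2.73 and 1.79 in NCM. Every LLC_CM ratio was above every NCM ratio. The mean log2 ratio was 1.47 higher in LLC_CM, which is 2.77-fold (exact permutation test, p = 0.0286 raw and adjusted). Bcl2 alone already separated the groups, so the separation of this ratio adds little to the fall of Bcl2. Bcl2l1, which encodes BCL-XL, averaged 31.3 ± 0.888 CPM in LLC_CM and 31.8 ± 3.68 CPM in NCM and was not called (log2 fold change -0.02 ± 0.08, edgeR adjusted p = 0.86). The ratio of Bax to Bcl2l1 was 1.95, 1.95, 2.17 and 2.30 in LLC_CM, against 1.70, 1.55, 1.86 and 1.60 in NCM. These groups were also separated, with a mean log2 ratio 0.32 higher in LLC_CM, which is 1.25-fold (exact permutation test, p = 0.0286 raw and adjusted). Without NCM replicate 4 the adjusted p was 0.0571 for both ratios, and for Bax to Bcl2l1 it was 0.0571 without LLC_CM replicate 3 or 4 as well.

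**Figure D4:**
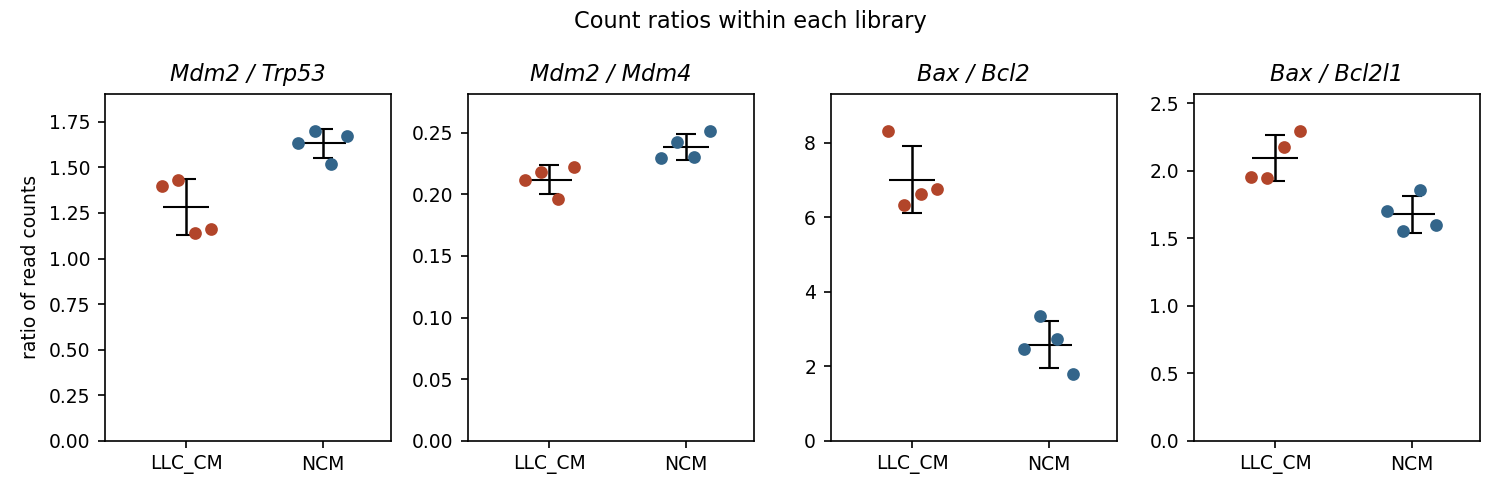
Ratios of counts within each library for Mdm2 over Trp53, Mdm2 over Mdm4, Bax over Bcl2 and Bax over Bcl2l1, LLC_CM left of NCM, with points for libraries and bars for the mean ± SD (n = 4). The Mdm2 ratios are lower in all 4 LLC_CM libraries than in any NCM library and the Bax ratios are higher.

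Of 18 listed regulators of p53, 17 were tested, of which 3 rose and 4 fell, against 18.8% and 18.1% of all genes. Their median log2 fold change was -0.06, against 0.01 over all genes. Since 36.9% of all genes tested were called, 7 calls among 17 is close to the background. Hipk2, a kinase that phosphorylates p53 for its death functions, fell to 14.6 ± 2.03 CPM in LLC_CM, against 27.6 ± 2.61 CPM in NCM (SD, n = 4 each, log2 fold change -0.92 ± 0.10, edgeR adjusted p = 5.3e-06). Usp7, the deubiquitinase of Mdm2 and p53, fell by 0.27 ± 0.05 on the log2 scale (edgeR adjusted p = 0.0011). Chek2, a checkpoint kinase that phosphorylates p53 after DNA breaks, rose to 15.9 ± 0.667 CPM in LLC_CM, against 10.1 ± 1.003 CPM in NCM (log2 fold change 0.65 ± 0.10, edgeR adjusted p = 6.3e-05). The phosphatase gene Ppm1d and the damage kinase gene Atr also fell, and Chek1 and the ubiquitin ligase gene Rchy1 rose. Cdkn2a, which encodes the Mdm2 inhibitor Arf, had 0 counts in every library.

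Of the further arrest and feedback targets, 12 of 14 were tested, of which 4 rose, 0 were called lower and 8 were not called, where 18.8% of all genes were called higher and 18.1% lower. The log2 fold change was above 0 for 8 of the 12, and for 7780 of all 14991 genes tested. The median of the 12 was 0.17. Plk2, a polo-like kinase, rose to 83.1 ± 4.46 CPM in LLC_CM, against 60.3 ± 3.71 CPM in NCM (log2 fold change 0.46 ± 0.06, edgeR adjusted p = 3.0e-05). Ptprv, a receptor phosphatase that p53 induces in the mouse and that osteoblasts express, rose by 0.48 ± 0.08 (edgeR adjusted p = 0.00027). Ier5 was also called, and Gtse1, a p53-binding protein of dividing cells, rose by 0.39 ± 0.12 (edgeR adjusted p = 0.018). The call of Gtse1 was lost without LLC_CM replicate 4 (0.075) or NCM replicate 1 (0.054), and the count of risen genes was 2 without NCM replicate 1.

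Of 13 death targets 11 were tested, of which 3 rose and 1 fell, with a median of 0.10. Of all genes tested 36.9% were called, so 4 calls among 11 is close to the background. Bid, a BH3-only protein that activates Bax, rose to 57.9 ± 1.82 CPM in LLC_CM, against 35.6 ± 2.03 CPM in NCM (log2 fold change 0.70 ± 0.06, edgeR adjusted p = 3.7e-07), and 17.7% of its exonic bases are shared with Bcl2l13 on the other strand. Siva1, a death-domain adaptor protein, rose by 0.38 ± 0.10 (edgeR adjusted p = 0.0084), and the death receptor gene Fas was also higher. Aen, a nuclease of apoptotic cells, fell by 0.51 ± 0.08 (edgeR adjusted p = 8.8e-05). Pmaip1, which encodes NOXA, and Perp had 0 counts in every library. In the BCL2 family, 9 of 12 were tested, of which 1 rose and 2 fell, with a median of -0.02, also close to the background. Besides Bcl2, the BAX relative Bok fell by 0.56 ± 0.08 (edgeR adjusted p = 3.3e-05). Bak1, the other main pore former, rose by 0.26 ± 0.07 (edgeR adjusted p = 0.0098, and 0.054 without NCM replicate 1), and Ggnbp1 on the other strand shares exonic bases with it.

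Targets of repair and metabolism held the largest rises among the p53 target lists. Of 17 tested, 5 rose and 1 fell, with a median of 0.09. Since 36.9% of all genes tested were called, 6 calls among 17 is close to the background. Fdxr, the mitochondrial ferredoxin reductase, rose to 35.8 ± 6.37 CPM in LLC_CM, against 14.5 ± 2.37 CPM in NCM (log2 fold change 1.31 ± 0.14, edgeR adjusted p = 4.5e-06). Dcxr, a carbonyl and xylulose reductase, rose to 32.3 ± 3.16 CPM in LLC_CM, against 15.0 ± 1.10 CPM in NCM (log2 fold change 1.11 ± 0.09, edgeR adjusted p = 1.4e-07). Dram1, a lysosomal protein of autophagy, rose by 0.57 ± 0.07 (edgeR adjusted p = 8.5e-06). Ak1 and the mTORC1 inhibitor gene Ddit4 also rose, and the lipid transfer gene Pltp fell.

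Among p53 family genes and paralogs of members, 6 of 9 were tested, of which 3 rose and 0 fell, with a median of 0.17. Over all genes tested, 18.8% were called higher and 18.1% lower. Trp63, which encodes the p53 relative p63, rose 2.34-fold, to 62.9 ± 3.20 CPM in LLC_CM, against 26.9 ± 6.64 CPM in NCM (log2 fold change 1.23 ± 0.15, edgeR adjusted p = 5.8e-05). The other calls were weak. Sesn3, a relative of Sesn1, rose by 0.34 ± 0.11 (edgeR adjusted p = 0.033), and Phlda1, a relative of Phlda3 at 1.65 CPM in LLC_CM and 0.946 CPM in NCM, rose by 0.80 ± 0.28 (edgeR adjusted p = 0.037). An antisense gene model shares 33.0% of the exonic bases of Phlda1. Leaving out LLC_CM library 4, or either library 3 or library 4 of NCM, brought the count of risen genes to 1.

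p21 is known to hold down cell cycle genes through the DREAM repressor complex, and a list of those genes was read beside the lower Cdkn1a level. Of 15 tested, 1 was called higher and 0 lower, with a median of 0.11. That is a smaller share called than over all genes, of which 18.8% were called higher and 18.1% lower. The log2 fold change was above 0 for 12 of the 15, and for 7780 of all 14991 genes tested. A link of these genes to the Cdkn1a level was not tested. Cdk1, the mitotic kinase, rose to 114 ± 6.85 CPM in LLC_CM, against 90.8 ± 9.03 CPM in NCM (log2 fold change 0.32 ± 0.07, edgeR adjusted p = 0.0026). The count of called genes was 3 without LLC_CM replicate 1 and 2 without NCM replicate 3 or 4.

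ATF4, the transcription factor of the integrated stress response, shares targets with p53, among them Gdf15, so its own targets were listed as well. Of 9 tested of 10, 0 rose and 6 fell, with a median of -0.49, where 18.8% of all genes were called higher and 18.1% lower. Like the other lists, this one was chosen with earlier results of these data known. Sesn2, which was not called, is on both this list and that of repair and metabolism. Vldlr, a lipoprotein receptor, fell to 62.8 ± 7.49 CPM in LLC_CM, against 397 ± 31.0 CPM in NCM (log2 fold change -2.66 ± 0.09, edgeR adjusted p = 1.0e-11). Asns, asparagine synthetase, fell to 61.9 ± 1.99 CPM in LLC_CM, against 128 ± 7.53 CPM in NCM (log2 fold change -1.05 ± 0.06, edgeR adjusted p = 2.3e-09). Chac1, a glutathione-degrading enzyme, fell by 2.25 ± 0.25 (edgeR adjusted p = 3.8e-06). Atf4 itself, Trib3 and Ppp1r15a fell too.

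**Figure D5:**
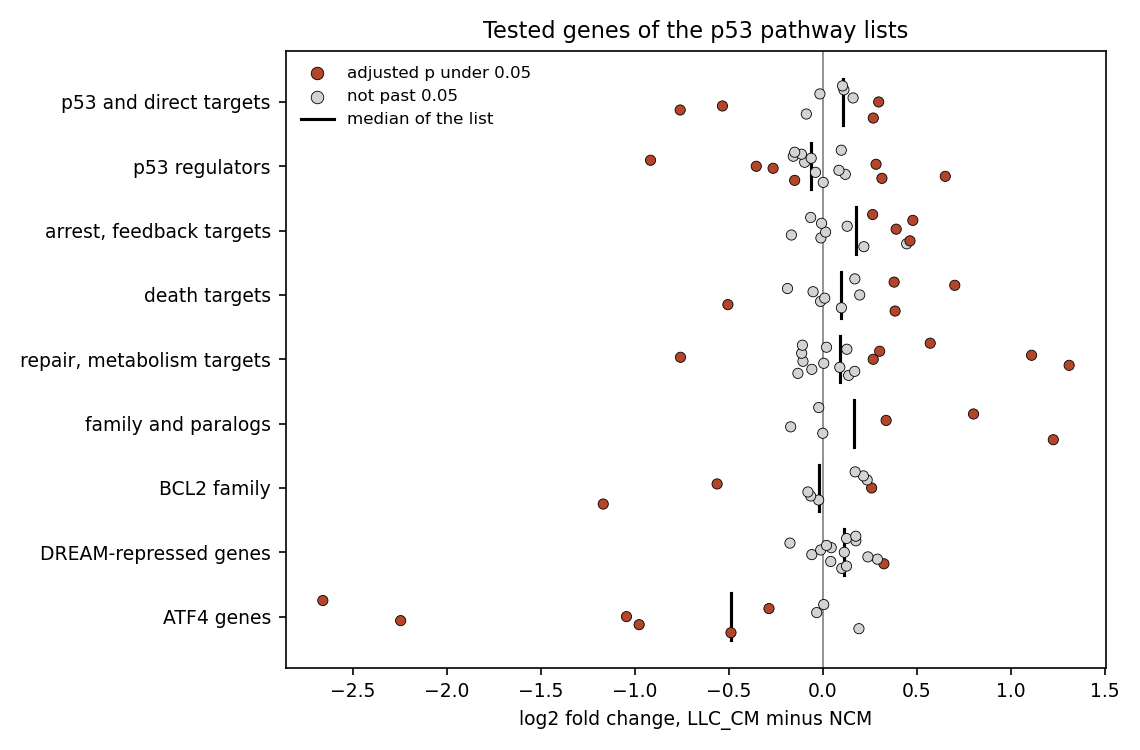
Log2 fold change of every tested member and of every tested gene of the 8 lists around p53, LLC_CM over NCM, with points for genes, coloured where called, and a line for the median of each list. The ATF4 list has the lowest median, -0.49, and the other medians lie between -0.06 and 0.17.

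The genes whose 8-library pattern was most like that of Trp53 or Cdkn1a were sought among 10001 genes of at least 5 CPM, by the root mean square difference of log2 CPM after centring each gene on its NCM mean. Nearest to Cdkn1a were Dtx4 at a distance of 0.0414, Srpx2 at 0.0488 and Dixdc1 at 0.0579, with log2 fold changes of -0.77, -0.78 and -0.80. Nearest to Trp53 were Rpn2 at 0.0425, Hist1h2bc at 0.0446 and Nt5c3b at 0.0458, with log2 fold changes of 0.23, 0.27 and 0.23. Hist1h2bc belongs to a histone family of near-identical genes, so its count is uncertain. Since likeness was measured on these same libraries, the fold changes of these genes are a description and are not tested here.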

How the data were processed

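RNA of 8 MC3T3 samples was sequenced from poly(A)-selected libraries without strand marking, made from 200 ng of RNA with 12 PCR cycles, per the labels' protocols. The authors deposited raw read counts per gene, made with CASAVA, STAR and featureCounts on mm10 per the submitters' processing notes. Versions are not given in the sources used here. Gene coordinates and lengths are those of the deposited table, and 0 count columns were left unmapped.

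The members and gene lists were chosen with earlier results of these data known. Genes were kept by filterByExpr and fitted across the whole table with edgeR 4.0.16 (limma 3.58.1, R 4.3.3), using TMM factors, robust quasi-likelihood estimation and no covariate. Intervals are 95% intervals from the fit. The script was tested on simulated data. Ratios used counts plus 0.5. Named genes were the members, up to 3 called genes with the smallest adjusted p in each of 8 lists that averaged at least 1 CPM, the 2 ratio partners Mdm4 and Bcl2l1, and the 3 genes most like each separated member. The other called list genes and those at 0 were named after their values were seen.

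With 3 counts as the floor, a gene at 0 may have had up to 0.111 CPM in the least deep library. Such limits cover counting error only, since PCR reads carry no molecular identifiers. No library repeats another of its group: over genes with 20 or more counts the smallest chi-square between any pair, divided by its degrees of freedom, was 7.07. Exon overlaps come from GENCODE M21, and transcript matches are those of at least 300 aligned bases and 90% identity. Alternatives were other scalings and filters, DESeq2 1.42.0, limma-voom, an adjusted p of 0.01, a replicate block, an odd or even replicate term, odd or even libraries alone, and leaving out each library. The order of levels was also recomputed with GENCODE M21 exonic lengths.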

Additional observations from a re-analysis of the deposited data

Results flagged for a closer look

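In each of 94 groups of 4 libraries, the gap between the most extreme library and its nearest neighbour was set against the range of the group. Chance flags about 1 in 20 such groups. Cdkn1a had 242.5 CPM in LLC_CM library 4, against 268 to 271 CPM in the other LLC_CM libraries. Dtx4 had 15.0 CPM in the same library, against 17.4 to 17.7 CPM in the others, but it was picked for its likeness to Cdkn1a over these libraries, so its low value adds nothing to that of Cdkn1a. Cdk1 had 77.4 CPM in NCM library 3, against 93.8 to 96.7 CPM in the other NCM libraries. Asns had 116.4 CPM in NCM library 2, against 131.2 to 131.7 CPM in the others.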

How the results depend on the processing

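Over 780 recomputations of named genes (20 settings each), 707 kept direction and side of the threshold, 66 lost the call and 7 changed sign without being called in either fit. Sign changes were Sesn1 with even-numbered libraries alone (0.052), without LLC_CM replicate 3 (0.0014) and without NCM replicate 1 (0.012), Phlda3 (-0.015) and Bcl2l1 (7.5e-05) with odd-numbered libraries alone, Bcl2l1 without NCM replicate 2 (0.038), and Mdm4 with even-numbered libraries alone (-0.0013). Leaving out one library gave -0.061 to 0.012 for Sesn1 and -0.095 to 0.038 for Bcl2l1. Halving the libraries lowered the number of genes called to 3145 (even) and 3034 (odd), against 5531 with all, and leaving out one gave 4912 to 5501.

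Members called higher numbered 2, then 1 at an adjusted p of 0.01, 1 with odd and 0 with even libraries, and 1 to 2 leaving out one. Members called lower numbered 2, then 1 at 0.01, with a 1 CPM filter, no filter, limma-voom, upper-quartile factors, the odd or even term, and odd or even libraries alone, and 1 to 2 leaving out one. Trp53 lost its call with even libraries alone (adjusted p = 0.17), and Cdkn1a lost it in no setting.

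With even and odd libraries alone, called genes numbered 2 and 4 of 7 for regulators, 1 and 2 of 4 for arrest targets, and 2 and 2 of 4 for death targets. At 0.01 arrest targets had 2 and the p53 family 1, which also had 1 with odd libraries. The DREAM list had 2 against 1 with a 1 CPM filter, no filter, upper-quartile factors, the odd or even term, odd libraries or the replicate block. Leaving out one library gave 5 to 7 regulators, 2 to 4 arrest targets, 3 to 5 death targets, 5 to 6 repair genes, 1 to 3 family genes, 2 to 4 BCL2 genes, 1 to 3 DREAM genes and 6 ATF4 genes.

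The replicate number did not pair the libraries: deviations correlated at -0.04 to 0.20 for the same number and -0.23 to 0.18 for others. With it as a block 5473 genes and 2 and 2 members were called. The log2 ratio differences kept their size as pairs (Mdm2 to Trp53 -0.35, Mdm2 to Mdm4 -0.17, Bax to Bcl2 1.47, Bax to Bcl2l1 0.32), where the smallest p of 16 exact sign flips is 0.125. Leaving out one library they ran from -0.41 to -0.30, -0.19 to -0.13, 1.31 to 1.60 and 0.27 to 0.37. The cause of these changes was not tested, apart from fewer libraries. With GENCODE M21 exonic lengths, an alternative added after seeing the data, Cdkn1a exceeded Ccng1 per length in 1 NCM library in place of 4. Low counts limit the precision for genes such as Gdf15 (30 counts over LLC_CM and 31 over NCM).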
